A study of Homo sapiens with 89 samples.

Results

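The Notch genes described here are 10 human genes: the receptors NOTCH1, NOTCH2 and NOTCH3, the ligands JAG1, JAG2 and DLL3, and the transcription factors HES1, HES4, HES6 and HEY1. They were taken by symbol from 2 count tables of polyadenylated RNA that hold the same 57905 genes, and all 10 were found in both. The study asks how MYCN, a transcription factor of the MYC family, works with the nuclear RNA exosome, a complex that degrades and trims RNA in the nucleus. Of its 89 samples, 15 RNA-seq libraries in 5 groups of 3 were used.

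IMR-32 is a neuroblastoma cell line with amplified MYCN. Its shEXOSC10 group was given doxycycline at 1 µg/ml to induce an shRNA against EXOSC10, an exonuclease subunit of the exosome, and its control group was kept without doxycycline, so that this shRNA was not induced; its columns are named EtOH, for ethanol. SHEP is a neuroblastoma cell line without MYCN amplification. Its libraries are labelled as having doxycycline-induced wild type MYCN, as having the induced triple mutant 3A, which the labels call deficient in RNA binding, or as having no MYCN. Doxycycline at 1 µg/ml was given to both MYCN groups and not to the cells without MYCN. Doxycycline itself therefore cannot be told apart from the shRNA in IMR-32, or from either MYCN form when it is set against no MYCN, while wild type and 3A were both treated. Whether replicates are separate cultures is not stated in the labels, and every p below therefore covers the spread among these libraries alone, which may be technical.

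Notch signalling passes between neighbouring cells. A ligand of the Jagged or Delta-like family on one cell binds a receptor on the next, the receptor is cut by ADAM proteases and gamma-secretase, and its intracellular part joins RBPJ and a Mastermind-like protein at target genes. HES1 and HEY1 are well known targets that encode repressors of the basic helix-loop-helix class and hold back proneural factors, while HES6 can counter HES1 and DLL3 acts mainly inside the cell as an inhibitory ligand. Neuroblastoma cells occur in an adrenergic state, close to sympathetic neurons, and a mesenchymal state, and Notch activity is known to drive the mesenchymal one.

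The 250 bases before the transcription start were searched for 8 of the 10 genes (RefSeq, build GRCh38.p14, while the counts use hg19). The windows of DLL3 and HEY1 were not searched. The 3 HES promoters below are shown because HES1, HES4 and HES6 each differed between libraries labelled wild type MYCN and 3A, as given further on. Capitals mark GTGGGAA, the motif of RBPJ, searched on both strands.
HES1, chr3:194135898-194136147, plus strand: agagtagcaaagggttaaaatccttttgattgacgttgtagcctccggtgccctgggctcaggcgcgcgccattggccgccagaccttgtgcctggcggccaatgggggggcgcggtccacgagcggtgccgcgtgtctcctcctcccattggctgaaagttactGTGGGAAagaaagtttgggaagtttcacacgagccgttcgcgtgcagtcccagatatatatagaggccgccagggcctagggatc
HES4, chr1:1000098-1000347, minus strand: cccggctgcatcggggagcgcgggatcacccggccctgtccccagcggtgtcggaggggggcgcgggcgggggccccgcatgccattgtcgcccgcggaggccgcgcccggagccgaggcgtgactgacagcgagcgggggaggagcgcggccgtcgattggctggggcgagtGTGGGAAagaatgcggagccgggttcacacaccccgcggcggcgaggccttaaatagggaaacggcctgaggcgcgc
HES6, chr2:238240039-238240288, minus strand: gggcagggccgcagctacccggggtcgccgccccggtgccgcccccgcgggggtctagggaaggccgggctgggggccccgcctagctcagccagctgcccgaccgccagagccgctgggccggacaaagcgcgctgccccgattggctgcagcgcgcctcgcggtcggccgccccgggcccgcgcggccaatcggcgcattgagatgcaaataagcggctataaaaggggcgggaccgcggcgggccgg
The motif started 85 bases before the HES1 start and 77 bases before the HES4 start, and it had 0 matches before HES6 and before the NOTCH1, NOTCH2, NOTCH3, JAG1 and JAG2 starts. Of 35116 promoters of the same length, 5.43% held it. The E-box CACGTG, which MYC family proteins bind, had 0 matches in all 8 windows, against 6.34% of promoters with a match. The N-box CACNAG, bound by HES repressors, had 3 matches before HES1 and 1 before NOTCH3, and 32% of promoters held it. A match describes the letters of the window and does not show binding.

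The libraries held 16394148 to 26193478 counts in IMR-32 and 11638859 to 15353505 counts in SHEP. EXOSC10 stood at 49.0, 46.7 and 46.1 CPM (a share of the library, adjusted by TMM) in shEXOSC10 libraries, against 74.6, 64.0 and 67.1 CPM in controls, a log2 fold change of -0.54 (SE 0.08, edgeR adjusted p = 2.3e-08). MYCN itself averaged 599 ± 5.47 CPM in shEXOSC10 libraries and 1097 ± 15.3 CPM in controls (SD, n = 3), a change of -0.87 (SE 0.04, edgeR adjusted p = 7.5e-30), and the part of this difference in the Notch gene changes was not tested. In SHEP, MYCN had 2, 0 and 0 counts in libraries labelled wild type, 10, 0 and 0 in those labelled 3A and 4, 0 and 0 in those labelled no MYCN. Its row therefore does not check the SHEP labels, and why the induced forms left no counts there was not tested. Of 12 adrenergic marker genes, 10 lay above 1 RPKM (CPM per kilobase of exon) in every IMR-32 library and 3 or 4 in SHEP, while 12 of 12 mesenchymal markers did so in every SHEP library and 6 or 7 in IMR-32. PRRX1, which defines mesenchymal cells, had at most 2 counts in IMR-32 and 566 to 994 counts in SHEP. Not every marker followed its list. TWIST1, a mesenchymal marker, averaged 44.4 RPKM in IMR-32 controls and 39.6 RPKM in SHEP without MYCN. GATA2, an adrenergic marker, averaged 0.286 RPKM in IMR-32 controls and 11.9 RPKM in SHEP without MYCN. TH, also adrenergic, averaged only 0.253 RPKM in IMR-32 controls. Leukocyte, epithelial and endothelial markers summed to at most 7.50 RPKM in any library, and PTPRC, which defines leukocytes, had at most 4 counts.

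The lines differed in which Notch genes were high. Per length of exon, DLL3 was the highest in IMR-32 controls at 127 ± 7.49 RPKM (SD, n = 3), close to HES6 at 118 ± 2.30 RPKM, and the ranges of these neighbours overlapped. NOTCH3 followed at 34.6 ± 2.12 RPKM, JAG2 at 27.0 ± 0.912 RPKM, HES4 at 19.6 ± 1.11 RPKM and NOTCH1 at 11.98 ± 0.544 RPKM, with no overlap between neighbours. JAG1 at 0.436 RPKM, HES1 at 0.179 RPKM, HEY1 at 0.0605 RPKM and NOTCH2 at 0.0366 RPKM were all far lower. In SHEP without MYCN the order was another one. HES1 at 15.9 ± 2.57 RPKM and JAG1 at 15.2 ± 0.520 RPKM led with overlapping ranges, followed by HES6 at 9.62 ± 1.39 RPKM, NOTCH2 at 6.76 ± 0.646 RPKM and HES4 at 3.63 ± 0.945 RPKM. HEY1 at 1.17 ± 0.224 RPKM and NOTCH1 at 0.996 ± 0.141 RPKM overlapped, and DLL3, NOTCH3 and JAG2 stood at 0.527, 0.229 and 0.0893 RPKM.

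**Figure D1:**
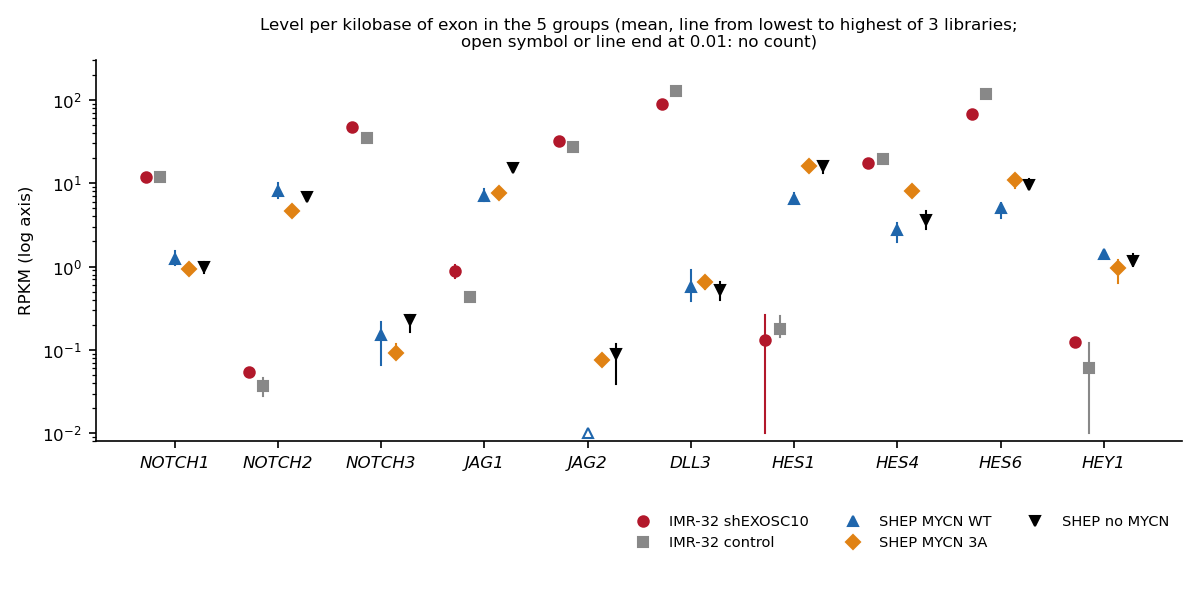
Level of each of the 10 genes in RPKM on a log axis, as the mean of 3 libraries (symbol) and their lowest and highest value (line), for the 5 groups; SHEP groups carry their labels. In IMR-32 DLL3 and HES6 are highest and HES1, HEY1 and NOTCH2 lie near the bottom, while in SHEP without MYCN HES1 and JAG1 lead at 15.9 and 15.2 RPKM and JAG2 is lowest.

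The high receptor and the high Jagged ligand differed between the lines. NOTCH3 was 151-fold, JAG2 302-fold and NOTCH1 12.04-fold higher in IMR-32 controls than in SHEP without MYCN, whereas NOTCH2 was 185-fold and JAG1 34.8-fold higher in SHEP. DLL3 was 241-fold, HES6 12.3-fold and HES4 5.40-fold higher in IMR-32, and HES1 was 88.6-fold higher in SHEP. HEY1 was higher in SHEP too, but with 4, 8 and 0 counts in IMR-32 controls no fold is given. Several of the other folds also rest on few counts in the lower line, so their size is uncertain. JAG2 had 4 to 10, DLL3 14 to 24 and NOTCH3 20 to 37 counts in SHEP without MYCN. HES1 had 6 to 11 and NOTCH2 10 to 16 counts in IMR-32 controls. The ranges of the lines did not overlap for any of the 10 genes, but the same held for 87.5% of 19074 genes, so the share says little about Notch genes. The tables were counted and normalized separately, line and table cannot be told apart, and no test was made. NOTCH2 shares near-identical exons with its NOTCH2NL copies, so its level is uncertain.

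On EXOSC10 depletion in IMR-32 the ligands moved in both directions: JAG1 and JAG2 rose and DLL3 fell. The receptor NOTCH3 rose too, NOTCH1 stayed within the control range, and HES6 fell most among the 10 genes. Of the 8 Notch genes with enough counts for the test, 3 rose, 2 fell and 3 were not called at an edgeR adjusted p under 0.05. Over all 17103 genes tested, 27.1% were called, 13.5% as higher and 13.7% as lower. Ranges did not overlap for 6 of the 8, against 38.4% of all genes. The median log2 fold change was 0.12 over the 8 genes and -0.001 over all genes.

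NOTCH3 (ENSG00000074181, hg19 chr19:15270444-15311792, minus strand), the highest of the 3 receptors in this line, had 412, 402 and 421 CPM in depleted libraries, against 303, 287 and 324 CPM in controls. Every depleted library lay above every control. Its log2 fold change was 0.43 (SE 0.05, edgeR adjusted p = 3.5e-12). NOTCH1 (ENSG00000148400, chr9:139388896-139440314, minus strand), the other receptor with a substantial level, had 120, 114 and 116 CPM in depleted libraries, against 122, 112 and 121 CPM in controls. These ranges overlapped, with a log2 fold change of -0.02 (SE 0.06, edgeR adjusted p = 0.869). NOTCH2 (ENSG00000134250, chr1:120454176-120612240, minus strand) had 16 to 24 counts after depletion, against 10 to 16 in the control libraries, and its fold change of 0.58 on the log2 scale (SE 0.54) was not called (edgeR adjusted p = 0.479).

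Of the ligands, JAG1 (ENSG00000101384, chr20:10618332-10654694, minus strand) was low but showed the largest rise, with 4.56, 6.65 and 5.62 CPM in depleted libraries, against 2.82, 2.84 and 2.57 CPM in controls. The groups did not overlap, and the log2 fold change was 1.03 (SE 0.24, edgeR adjusted p = 6.0e-04). JAG2 (ENSG00000184916, chr14:105607318-105635161, minus strand) had 211, 207 and 204 CPM in depleted libraries, against 178, 167 and 173 CPM in controls. Its groups did not overlap either, and its change was smaller, at 0.26 (SE 0.05, edgeR adjusted p = 3.1e-05). DLL3 (ENSG00000090932, chr19:39989535-39999121, plus strand), the inhibitory ligand, had 233, 238 and 236 CPM in depleted libraries, against 351, 311 and 333 CPM in controls. All depleted libraries lay below all controls, with a log2 fold change of -0.49 (SE 0.05, edgeR adjusted p = 8.4e-14). A same-strand gene, ENSG00000257622, shares 7.33% of the exon bases of JAG2, and ENSG00000270408 shares 4.55% of those of JAG1. Reads in shared exons could count for both genes, and the partners held 320 to 622 and 2 to 7 counts in IMR-32, against 3400 to 5367 for JAG2 and 54 to 148 for JAG1.

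Among the HES genes, HES6 (ENSG00000144485, chr2:239146908-239149303, minus strand) had 147, 133 and 136 CPM in depleted libraries, against 245, 236 and 240 CPM in controls. The gap between the groups exceeded the spread within either, with a log2 fold change of -0.79 (SE 0.05, edgeR adjusted p = 2.8e-21). HES4 (ENSG00000188290, chr1:934342-935552, minus strand) had 20.6, 19.3 and 19.3 CPM in depleted libraries, against 22.5, 20.5 and 22.8 CPM in controls. The lowest control lay just inside the depleted range, and HES4 was not called (log2 fold change -0.15, SE 0.11, edgeR adjusted p = 0.340). HES1 (ENSG00000114315, chr3:193853934-193856521, plus strand) had 11, 0 and 7 counts in depleted libraries, against 6, 6 and 11 in controls. HEY1 (ENSG00000164683, chr8:80676245-80680098, minus strand) had 8, 6 and 12 counts in depleted libraries, against 4, 8 and 0 in controls. Both were below the filter on low counts. Without the filter neither was called, with log2 fold changes of -0.42 for HES1 (SE 0.93, edgeR adjusted p = 0.816) and 1.04 for HEY1 (SE 0.98, edgeR adjusted p = 0.540).

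**Figure D2:**
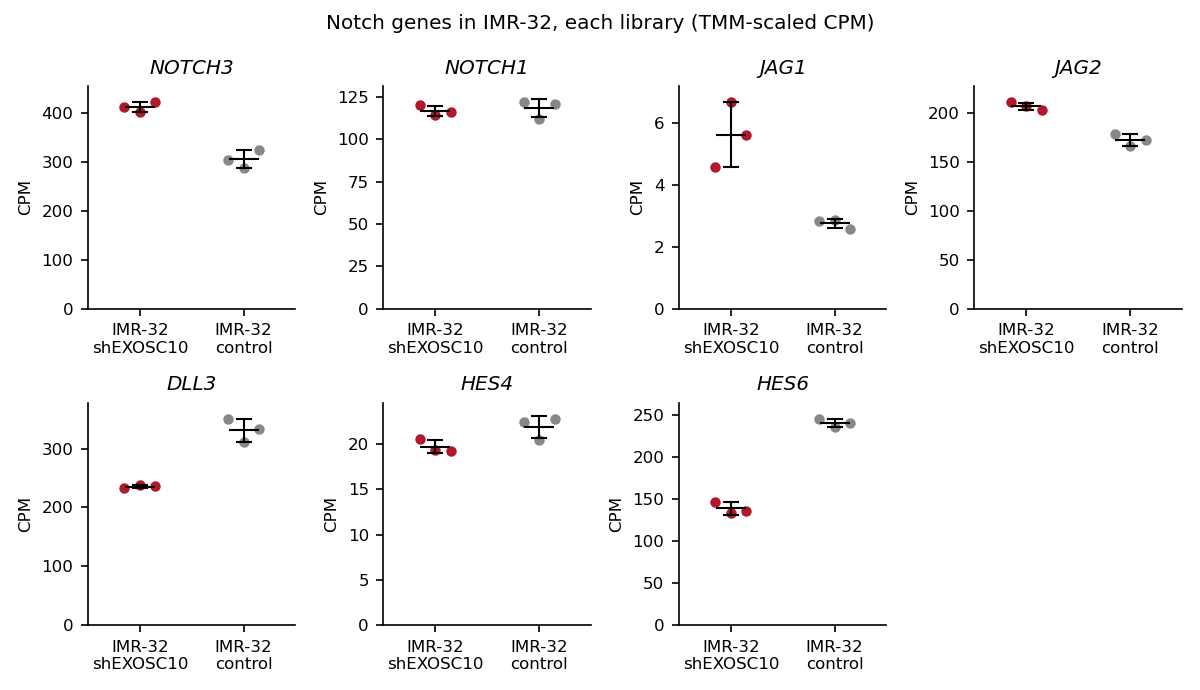
CPM of 7 of the 8 tested Notch genes in IMR-32 (NOTCH2 is not drawn), for shEXOSC10 and control libraries, with 1 point per library and mean ± SD (n = 3) as bars. NOTCH3, JAG1 and JAG2 lie higher, DLL3 and HES6 lower in all 3 shEXOSC10 libraries, while NOTCH1 and HES4 overlap with the controls.

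Other genes of the pathway were called in both directions on EXOSC10 depletion. Of 73 tested genes on 6 lists, 14 rose and 25 fell, where 27.1% of all genes were called, with a median log2 fold change of -0.06 over the 73. Of the proneural and ID genes, 12 of 17 fell and 0 rose (0 also at an unadjusted p under 0.05 and in DESeq2), and their median was -0.56. NHLH1, a neuronal helix-loop-helix factor, changed by -2.16 (SE 0.08), NEUROD1, a neurogenic factor, by -1.71 (SE 0.05), and HAND2, a noradrenergic lineage factor, by -0.68 (SE 0.04). NEUROD1 had 102, 100.2 and 105 CPM in depleted libraries, against 317, 342 and 347 CPM in controls. Of these 3, HAND2 also stands among the adrenergic markers, whose summed level was 718 to 733 RPKM after depletion, against 1161 to 1259 RPKM in the control libraries, with 9 of the 12 lower and 2 higher. In bulk RNA, fewer cells of a type and less RNA per cell cannot be told apart, and the part of the adrenergic decline in the Notch gene changes was not tested. Schwann cell markers, which summed to 51.2 to 53.4 RPKM after depletion, against 9.61 to 10.99 RPKM in the control libraries, moved with the same groups. NGFR, the neurotrophin receptor, changed by 4.05 (SE 0.07), while the defining glial gene SOX10 had 0 counts in all 6 libraries.

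Of the 5 other receptor and ligand genes tested, DLK1, a non-canonical ligand, fell by 2.42 on the log2 scale (SE 0.07), to 22.9, 26.2 and 26.0 CPM in depleted libraries against 138, 131 and 134 CPM in controls. The canonical ligand DLL1 rose by 0.41 (SE 0.10). Among 18 genes that process receptors and ligands, 9 rose and 2 fell, and the median was 0.12. Over all genes tested, 13.5% were called as higher and 13.7% as lower, which is the share to set beside each list count here. APH1B, a gamma-secretase subunit, changed by 0.52 (SE 0.08), NEURL1B, a ubiquitin ligase acting on ligands, by 0.50 (SE 0.09), POGLUT1, which puts glucose on receptors, by 0.36 (SE 0.07), and the Fringe glycosyltransferase MFNG by -0.47 (SE 0.06). In the nuclear complex 3 of 19 genes rose and 6 fell, with KAT2B, an acetyltransferase coactivator, at -0.75 (SE 0.05), the corepressor TLE1 at -0.53 (SE 0.09), its relative TLE2 at 1.44 (SE 0.33) and KAT2A at 0.32 (SE 0.06). Of 9 negative regulators, NRARP, a Notch-induced inhibitor, changed by -0.68 (SE 0.14), NUMBL by -0.36 (SE 0.07) and the ubiquitin ligase subunit FBXW7 by 0.27 (SE 0.09). The call of FBXW7 was lost without control replicate 2 or 3 or shEXOSC10 replicate 1 or 3 (edgeR adjusted p = 0.0629 to 0.110). HES2 and HES7, of the HES family, changed by -2.28 (SE 0.38) and -0.56 (SE 0.10), and 0 of 5 such genes rose, at an unadjusted p under 0.05 and in DESeq2 as well. The folds of HES2 and TLE2 rest on low levels, under 1 RPKM in every IMR-32 library. HES2 had 8 to 26 counts in depleted libraries, against 59 to 75 in controls. TLE2 had 51 to 105 counts in depleted libraries, against 24 to 30 in controls. The genes named here had edgeR adjusted p of at most 0.0230.

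In SHEP libraries labelled wild type MYCN, set against those labelled no MYCN, the ligand JAG1 and the transcription factors HES1 and HES6 fell. Of 9 Notch genes tested, 0 rose, 3 fell and 6 were not called in edgeR. At an unadjusted p under 0.05, 1 was higher, and DESeq2 called 0 higher and 3 lower. Over all 14923 genes, 22.2% were called, 10.9% as higher and 11.3% as lower. Ranges did not overlap for 3 of the 9, against 37.5% of all genes. The median log2 fold change of the 9 was -0.42, against -0.004 over all genes. With library totals in place of TMM, 35.1% of all called genes were higher, against 49.3%, but the 3 calls among Notch genes stood.

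JAG1, the highest of the 3 ligands in SHEP, had 53.0, 42.6 and 38.3 CPM in libraries labelled wild type, against 99.2, 93.0 and 94.4 CPM in those labelled no MYCN. All 3 wild type libraries lay below all 3 without MYCN, and the log2 fold change was -1.10 (SE 0.12, edgeR adjusted p = 3.5e-07). HES1, the canonical target, had 12.2, 15.8 and 12.1 CPM with the wild type label and 27.0, 37.3 and 34.1 CPM with the no MYCN label. These groups were as clearly apart, with a change of -1.29 (SE 0.14, edgeR adjusted p = 7.4e-07). HES6 had 7.75, 11.6 and 11.7 CPM with the wild type label and 17.5, 18.5 and 22.8 CPM without MYCN, a change of -0.92 (SE 0.18, edgeR adjusted p = 5.4e-04). Its groups did not overlap either.

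The receptors were not called in this comparison. NOTCH2 had 168, 126 and 112 CPM in libraries labelled wild type, against 124, 102 and 114 CPM in those labelled no MYCN. Only wild type replicates 1 and 2 exceeded the range without MYCN, and the change was 0.25 (SE 0.12, edgeR adjusted p = 0.137). Without wild type replicate 3, NOTCH2 was called at 0.37 (edgeR adjusted p = 0.0215). NOTCH1 had 15.4, 10.3 and 10.4 CPM with the wild type label and 10.0, 11.1 and 8.35 CPM without MYCN, with replicate 1 alone outside the other range. NOTCH3 spanned 0.573 to 1.90 CPM with the wild type label and 1.44 to 2.31 CPM without MYCN, and DLL3 spanned 1.00 to 2.40 CPM with the wild type label and 1.04 to 1.73 CPM without MYCN. HES4 averaged 3.02 ± 0.768 CPM with the wild type label and 4.06 ± 1.06 CPM without MYCN (SD, n = 3). HEY1 averaged 4.58 ± 0.320 CPM with the wild type label and 3.78 ± 0.725 CPM without MYCN. The ranges of these 4 genes overlapped, and edgeR adjusted p lay between 0.267 for HES4 and 0.907 for DLL3.

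JAG2 was at the limit of detection in SHEP and did not pass the filter on low counts. It had 0 counts in each library labelled wild type, where 3 counts would stand at 0.204 to 0.215 CPM. With the 3A label it had 6, 6 and 6 counts, and with the no MYCN label 4, 10 and 10. Without the filter, edgeR called the wild type label lower than no MYCN (adjusted p = 0.00340) and lower than 3A (adjusted p = 0.00478), and 3A was not called against no MYCN (adjusted p = 0.971). This floor covers counting error only, and read ends were counted singly, so the counts are not independent molecules.

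In libraries labelled MYCN 3A, JAG1 was lower than without MYCN, as were NOTCH2 transcripts, while HES4 was higher. Of the 9 tested genes 1 rose, 2 fell and 6 were not called, where 25.5% of all 14923 genes were called, 12.7% as higher and 12.8% as lower. Ranges did not overlap for 4 of the 9, against 41.3% of all genes. The median log2 fold change was -0.09 over the 9 and -0.04 over all genes. With library totals the median of all genes moved to -0.14 and 29.6% of all called genes were higher, against 49.7%, and the 3 Notch calls stood in the same directions. Both MYCN forms were set against the same 3 libraries without MYCN, so their changes are not independent.

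JAG1 had 53.6, 49.6 and 41.7 CPM in libraries labelled 3A, against 99.2, 93.0 and 94.4 CPM in those labelled no MYCN. No library of one group entered the range of the other, and the log2 fold change was -0.98 (SE 0.12, edgeR adjusted p = 6.3e-06). NOTCH2 had 77.9, 85.3 and 68.0 CPM with the 3A label and 124, 102 and 114 CPM without MYCN, a change of -0.56 (SE 0.12, edgeR adjusted p = 0.00185). HES4 had 7.61, 9.14 and 9.93 CPM with the 3A label and 3.78, 5.22 and 3.17 CPM without MYCN, a change of 1.13 (SE 0.24, edgeR adjusted p = 0.00160). Both genes separated the groups fully, in opposite directions.

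HES1 had 31.9, 33.8 and 33.5 CPM in libraries labelled 3A, inside the 27.0 to 37.3 CPM of those labelled no MYCN. Its change of 0.02 (SE 0.14) was not called (edgeR adjusted p = 0.947), and its sign depended on the scaling. HES6, at 17.6, 24.8 and 23.8 CPM with the 3A label and 17.5, 18.5 and 22.8 CPM without MYCN, overlapped (edgeR adjusted p = 0.501). NOTCH3 had 14, 8 and 9 counts with the 3A label and 37, 31 and 20 without MYCN, and its change of -1.28 (SE 0.48) lay at the threshold (edgeR adjusted p = 0.0520). It was called with library totals (0.0369), with a replicate block (0.0426), in a fit of these 6 libraries (0.0334) and without no MYCN replicate 3 (0.0485). NOTCH1, DLL3 and HEY1 overlapped between the groups (edgeR adjusted p = 0.781, 0.665 and 0.501).

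**Figure D3:**
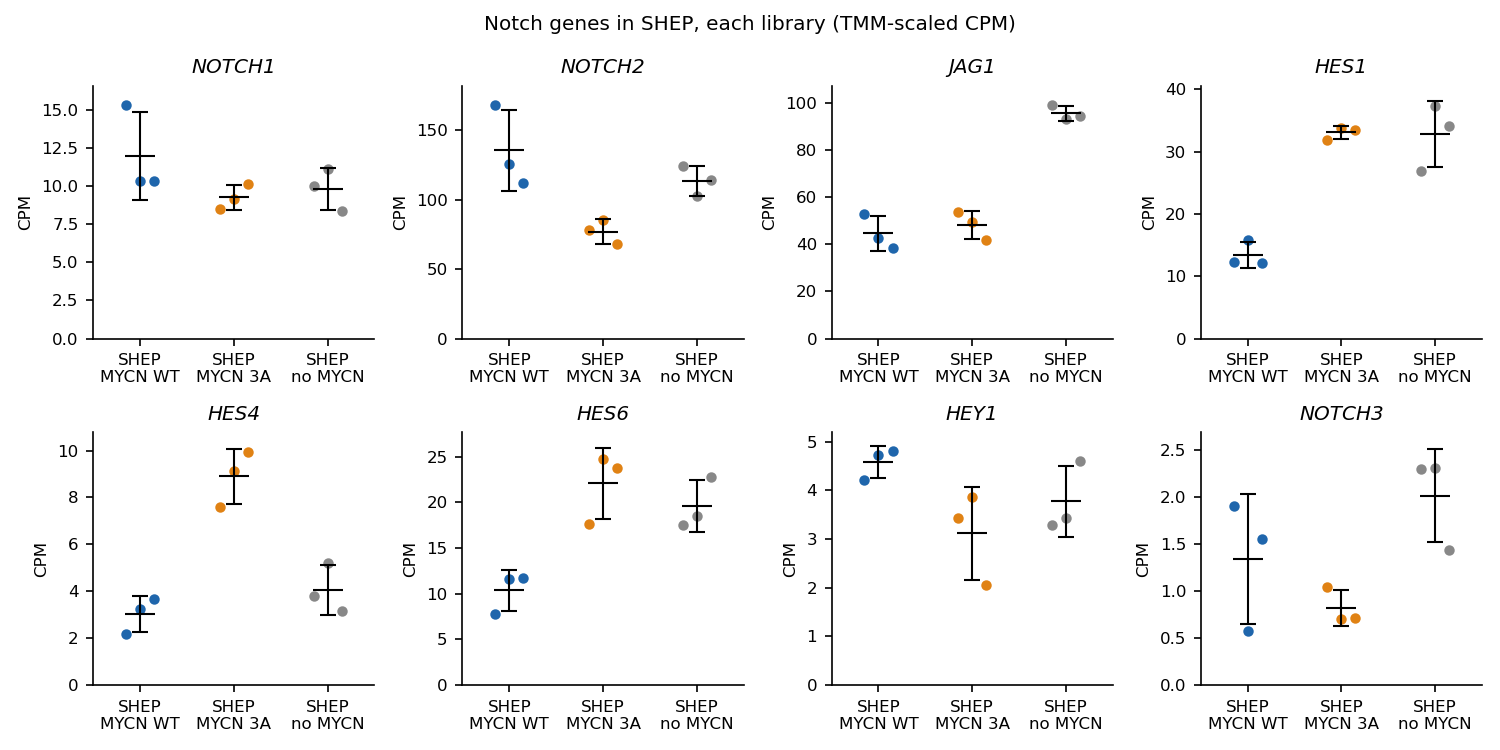
CPM of 8 Notch genes in SHEP for libraries labelled MYCN wild type, MYCN 3A and no MYCN, with 1 point per library and mean ± SD (n = 3) as bars. JAG1 is lower under both MYCN labels, HES1 and HES6 are lower under the wild type label alone, and HES4 is highest under the 3A label.

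Set directly against 3A, the wild type label had more NOTCH2 and less HES1, HES4 and HES6. The call covered 4 of 9 tested Notch genes, 1 higher and 3 lower, where 30.3% of all genes were called, 15.8% as higher and 14.5% as lower. HES1, HES4 and HES6 were all lower, and their ranges did not overlap with those of 3A. Ranges did not overlap for 6 of the 9 genes, against 40.4% of all genes tested.

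HES1 had 12.2, 15.8 and 12.1 CPM with the wild type label, against 31.9, 33.8 and 33.5 CPM with the 3A label, a log2 fold change of -1.31 (SE 0.14, edgeR adjusted p = 8.4e-07). HES4 had 2.18, 3.22 and 3.67 CPM with the wild type label, against 7.61, 9.14 and 9.93 CPM with the 3A label, and it showed the largest difference, at -1.55 (SE 0.25, edgeR adjusted p = 7.1e-05). For HES6 the values were 7.75, 11.6 and 11.7 CPM with the wild type label and 17.6, 24.8 and 23.8 CPM with the 3A label, a change of -1.09 (SE 0.18, edgeR adjusted p = 8.5e-05). The 3 genes were placed differently against no MYCN: HES1 and HES6 fell under the wild type label, whereas HES4 rose under the 3A label. HES1 and HES4 are those with an RBPJ motif in the promoter windows printed above, and HES6 has none there.

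NOTCH2 had 168, 126 and 112 CPM with the wild type label, against 77.9, 85.3 and 68.0 CPM with the 3A label, a log2 fold change of 0.81 (SE 0.12, edgeR adjusted p = 3.3e-05). It was the only Notch gene of the 9 called as higher. JAG1, which fell under both labels, had overlapping ranges between them and a change of -0.11 (SE 0.12, edgeR adjusted p = 0.499). NOTCH1 and HEY1 had no overlap but were not called, with changes of 0.38 (SE 0.19, edgeR adjusted p = 0.133) and 0.56 (SE 0.27, edgeR adjusted p = 0.128). NOTCH3 (0.70, SE 0.50) and DLL3 (-0.21, SE 0.44) overlapped and were not called either (edgeR adjusted p = 0.300 and 0.761).

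Wild type replicate 1 had the highest value of its group for NOTCH1, NOTCH2, NOTCH3 and JAG1 and the lowest for HES4, HES6 and HEY1. EXOSC10 was highest there as well, at 106 CPM against 91.5 and 82.6 CPM in wild type replicates 2 and 3. It averaged 93.2 ± 11.6 CPM with wild type, 61.5 ± 4.02 CPM with 3A and 81.1 ± 10.5 CPM without MYCN (SD, n = 3). Against no MYCN it was called lower with 3A (log2 fold change -0.40, SE 0.11, edgeR adjusted p = 0.00954). That call was lost in 2 alternatives, and wild type was not called (edgeR adjusted p = 0.195). Between wild type and 3A the log2 fold change was 0.60 (SE 0.11, edgeR adjusted p = 2.5e-04). With any single library left out, the calls of NOTCH2, HES1, HES4 and HES6 stood, with log2 fold changes over all alternatives of 0.63 to 0.94, -1.44 to -1.24, -1.72 to -1.36 and -1.23 to -0.92. Mesenchymal markers summed to 1646 to 1687 RPKM with the wild type label, 1232 to 1326 RPKM with 3A and 1338 to 1414 RPKM without MYCN, with 12 of 12 genes above 1 RPKM in each. Most of this sum is VIM, at 1073, 881 and 836 RPKM in the same order. Of the 12, 7 were higher and 2 lower with wild type than with 3A, 5 were higher and 3 lower with wild type than without MYCN, and 1 was higher and 5 lower with 3A than without MYCN. Over all genes, 30.3%, 22.2% and 25.5% were called in these comparisons, in the same order. COL1A1 went against the sum for wild type, at 44.3 RPKM with wild type, 83.5 RPKM with 3A and 155 RPKM without MYCN. FN1 was also lower with wild type than without MYCN, at 20.5 and 31.4 RPKM. The part of these markers in the Notch gene differences was not tested.

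**Figure D4:**
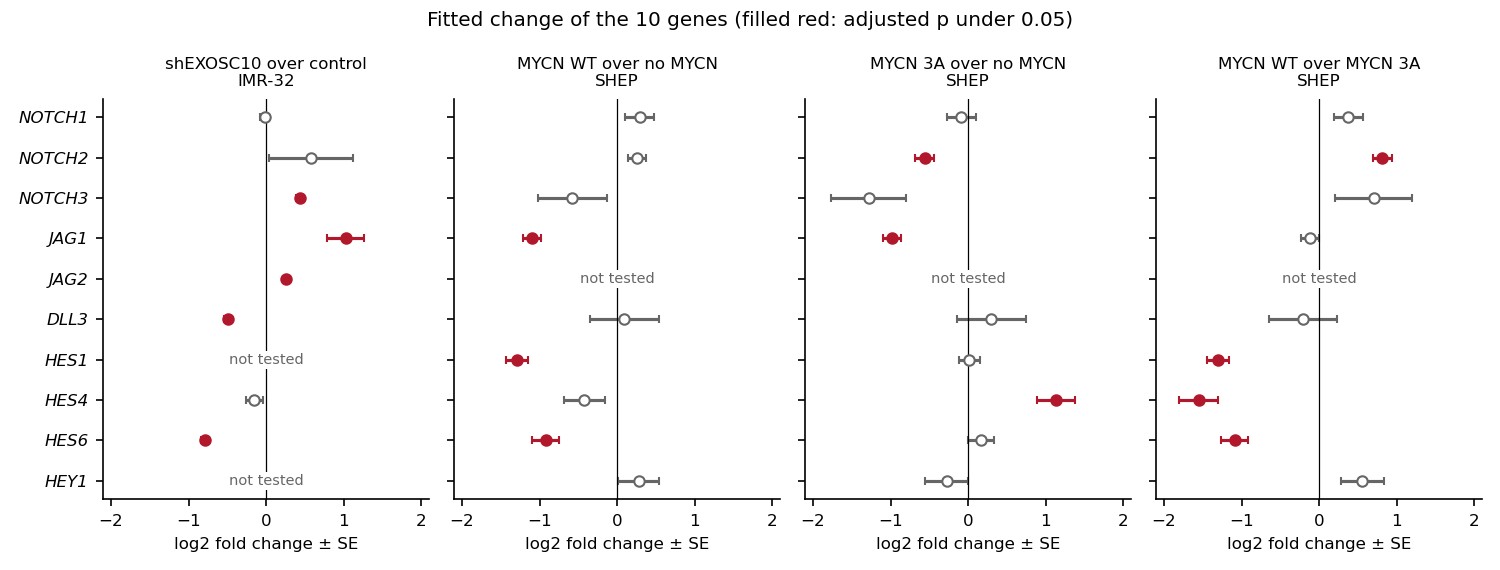
Log2 fold change ± SE of the 10 Notch genes in the 4 comparisons, filled red where the edgeR adjusted p is under 0.05 and open grey otherwise. HES1, HES4 and HES6 lie left of 0 in the wild type against 3A panel, with HES4 lowest at -1.55, and JAG1 lies left of 0 against no MYCN under both labels.

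The rest of the pathway in SHEP comprised 56 tested genes on the 6 lists. Under the wild type label 6 rose and 12 fell against no MYCN, where 22.2% of all genes were called, with a median log2 fold change of -0.10 over the 56. Of 16 processing genes, 5 fell and 0 rose (0 also at an unadjusted p under 0.05 and in DESeq2). LFNG, a Fringe enzyme that changes which ligands a receptor answers to, had 10.1, 8.67 and 10.7 CPM with the wild type label, against 20.5, 22.8 and 30.9 CPM without MYCN, a change of -1.33 (SE 0.16). RFNG, another Fringe, changed by -0.61 (SE 0.13), APH1B by -0.94 (SE 0.21) and NEURL1B by -0.86 (SE 0.22). Of 19 nuclear genes, 3 rose and 0 fell (0 fell also at an unadjusted p under 0.05 and in DESeq2): the coactivator MAML3 by 1.19 (SE 0.29), the corepressor TLE3 by 0.91 (SE 0.14) and the corepressor CTBP2 by 0.44 (SE 0.10). In the wider HES-related family the repressor BHLHE40 fell by 1.03 (SE 0.12) and its paralog BHLHE41 rose by 1.69 (SE 0.21). ID2, an inhibitor of helix-loop-helix factors, changed by -1.08 (SE 0.17) and ID1 by -0.35 (SE 0.09), while TCF3, an E protein, changed by 0.41 (SE 0.08). The genes named so far had edgeR adjusted p of at most 0.00599.

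A few weaker calls under the wild type label were lost when any of several libraries was left out. DLK2, a non-canonical ligand, changed by -1.71 (SE 0.51), ID4 by -0.62 (SE 0.19), and the negative regulators DTX2 and ITCH by -0.37 (SE 0.12) and -0.35 (SE 0.11). DLK2 was not called when no MYCN replicate 3 or wild type replicate 1 was left out (edgeR adjusted p = 0.123 and 0.0809). The call of DTX2 ended when no MYCN replicate 2 or either of wild type replicates 1 and 3 was left out, that of ITCH for no MYCN replicates 1 and 3 and wild type replicates 2 and 3, and that of ID4 for no MYCN replicate 3 and wild type replicates 1 and 2 (edgeR adjusted p = 0.0544 to 0.232).

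Under the 3A label 3 of the 56 genes rose and 17 fell, where 25.5% of all genes were called, and their median was -0.24. Processing genes fell in 8 of 16 cases and rose in 0 (1 at an unadjusted p under 0.05 and 1 in DESeq2). APH1B changed by -1.06 (SE 0.21), NEURL1B by -1.13 (SE 0.22), ADAM10, the protease that makes the first activating cut, by -0.53 (SE 0.12), and FURIN, which cleaves the receptor during its maturation, by -0.40 (SE 0.09). DNER, a neuronal Notch ligand, had 9.55, 8.17 and 8.91 CPM with the 3A label, against 17.2, 16.6 and 16.8 CPM without MYCN, a change of -0.92 (SE 0.16). BHLHE40 changed by -1.08 (SE 0.12). Each of these 6 had edgeR adjusted p of at most 0.00226 and was called under every alternative tried. The counts of this comparison fell when a library was left out: without no MYCN replicate 1 or 3A replicate 3, 12 or 11 pathway genes were called, against 20.

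The nuclear coactivators MAML2 (-1.03, SE 0.27) and KAT2B (-0.59, SE 0.16) fell, but not without 3A replicate 3 (edgeR adjusted p = 0.0558 and 0.0616). The coregulator SNW1 rose by 0.30 (SE 0.08), but not with library totals or without no MYCN replicate 2 (edgeR adjusted p = 0.0581 and 0.0700). NUMB and NUMBL, which hold back receptors, fell by 0.39 (SE 0.12) and 0.36 (SE 0.13). The call of NUMB ended when any of no MYCN replicates 1 and 3 and 3A replicate 3 was left out, and that of NUMBL for no MYCN replicates 1 and 2 and 3A replicates 1 and 3 as well as without the filter on low counts (edgeR adjusted p = 0.0562 to 0.164). BHLHE41 (0.66, SE 0.23), ID4 (-0.58, SE 0.20) and TCF12 (-0.44, SE 0.14), the last with overlapping ranges, were called in the full fit. ID4 and TCF12 each lost their call without any of 4 of the 6 libraries, no MYCN replicates 1 and 2 and 3A replicate 3 among them (edgeR adjusted p = 0.0556 to 0.156). BHLHE41 lost its call without any of the 6 libraries other than 3A replicate 2, and also with library totals, without the filter and in a fit of these 6 libraries (edgeR adjusted p = 0.0581 to 0.105).

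Between the labels, 16 of the 56 genes were higher with wild type than with 3A and 8 lower, where 30.3% of all genes were called, and their median was 0.12. The nuclear complex had 7 of 19 higher and 2 lower. MAML2 stood at 8.43, 8.38 and 5.22 CPM with the wild type label, against 3.88, 3.52 and 1.73 CPM with 3A, a difference of 1.27 (SE 0.27), and MAML3 differed by 1.37 (SE 0.30) and TLE3 by 0.70 (SE 0.14). LFNG differed by -1.02 (SE 0.16), RFNG by -0.44 (SE 0.13), the gamma-secretase subunit PSEN2 by -0.50 (SE 0.14) and FURIN by 0.35 (SE 0.09). DNER was higher with wild type by 0.77 (SE 0.16), and DTX3L, a ubiquitin ligase, by 0.62 (SE 0.18). BHLHE41 differed by 1.04 (SE 0.21), TCF4 by 0.62 (SE 0.12), TCF3 by 0.31 (SE 0.08), ID1 by -0.44 (SE 0.09) and ID2 by -0.85 (SE 0.17). HES7, at 0.818 CPM with wild type and 2.38 CPM with 3A, differed by -1.53 (SE 0.43). These genes had edgeR adjusted p of at most 0.0105. RFNG and DTX3L were not called without 3A replicate 2 (0.0808 and 0.0714), HES7 without 3A replicate 3 (0.0561) and PSEN2 without wild type replicate 1 (0.0669).

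**Figure D5:**
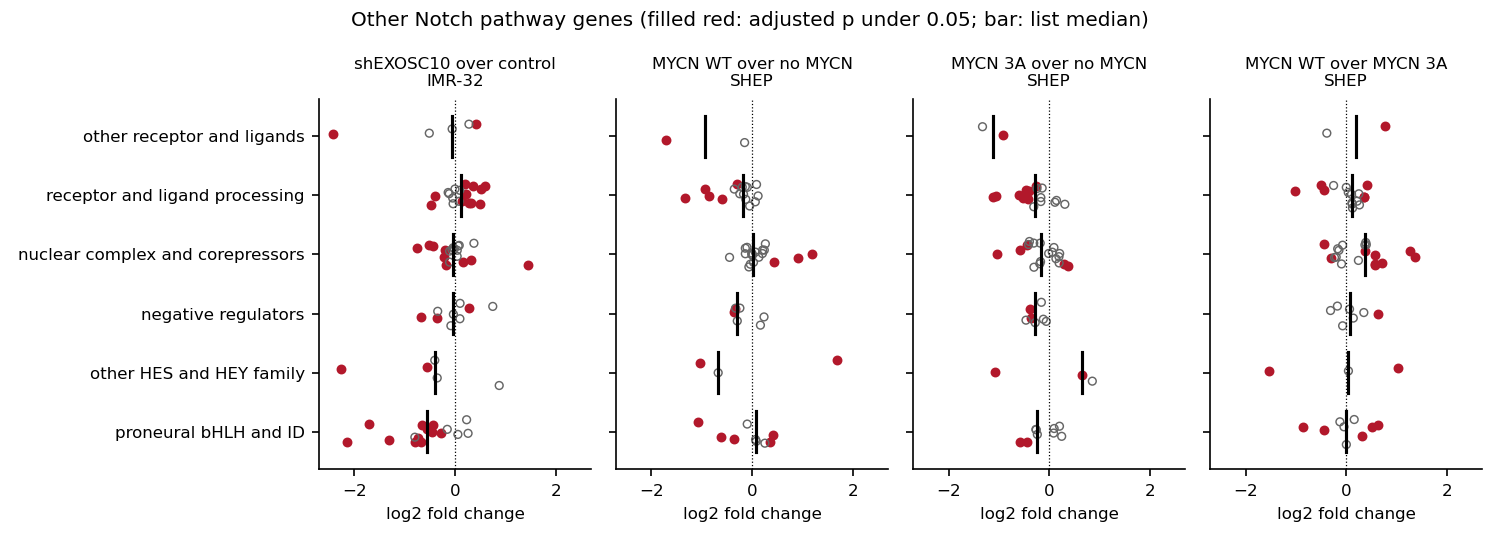
Log2 fold change of the tested genes on 6 lists of other Notch pathway genes in the 4 comparisons, filled red where the edgeR adjusted p is under 0.05 and open grey otherwise, with the list median as a bar. Proneural and ID genes lie mostly left of 0 on EXOSC10 depletion, with a median of -0.56, and processing genes lean left of 0 under the 3A label.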

How the data were processed

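Polyadenylated RNA of 15 libraries was analysed; the series' other 74 samples were not analysed here. Per the submitters' processing notes, reads were mapped with STAR 2.7.10a and counted with featureCounts 2.0.3 on hg19. The authors deposited raw, unnormalized read counts per gene. Per the file headers, the SHEP table used strand-specific counting of both mapped ends and counting for each overlapping gene; the IMR-32 table states no settings. Antisense density at facing genes was 0.0933% of sense in IMR-32 and 0.0233% in SHEP. Among counts of 1 to 10, 65.5 to 77.1% were even: read ends were counted singly. Treatment and replicate number in the column names joined the IMR-32 table to its samples.

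Genes were filtered with filterByExpr and TMM-scaled, and edgeR 4.0.16 (R 4.3.3) ran robust quasi-likelihood F tests, with Benjamini-Hochberg adjustment over 17103 genes in IMR-32 and 14923 in SHEP at 0.05. All 9 SHEP libraries shared a fit. The SE is the log2 fold change over the root of F. DESeq2 1.42.0, other scalings, no filter, a replicate block and leaving out each library were alternatives. The fits were tested on simulated data. The text names the 10 Notch genes, EXOSC10, MYCN and up to 4 called genes of smallest p per pathway list and comparison; other markers named as checks, NGFR and SOX10 among them, come from the marker lists. Some genes that this rule names are not reported here. The genes and lists were chosen with earlier results of these data known.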

Additional observations from a re-analysis of the deposited data

How the results depend on the processing

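Among called Notch genes, direction and call held under every alternative tried: other scalings, no filter, DESeq2, a replicate block, a fit of 6 libraries in SHEP, and without each library. Of 412 such values of the tested Notch genes 397 kept their direction and side of the threshold, 5 became called and 10 changed sign, all of them uncalled. The sign changes were NOTCH1 on EXOSC10 depletion (0.0074 with library totals; -0.057 to 0.00036 when a library was left out), NOTCH1 for 3A against no MYCN (-0.19 to 0.0081 likewise), HES1 for 3A against no MYCN (-0.084 with library totals; -0.11 to 0.12), DLL3 for wild type against no MYCN (-0.44 to 0.33) and DLL3 for wild type against 3A (-0.74 to 0.0054). The cause was not tested.

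Leaving out a library gave 5 called Notch genes throughout on EXOSC10 depletion, 3 to 5 for wild type against no MYCN, 3 to 4 for 3A against no MYCN and 5 throughout for wild type against 3A. In the wild type comparisons the counts above those of the full fit include JAG2, which then passed the looser filter, and, against no MYCN, NOTCH2 without wild type replicate 3. Pathway genes called ranged over 33 to 38, 14 to 17, 11 to 19 and 20 to 30, and all genes called over 3810 to 4386, 2313 to 3458, 2166 to 3616 and 3261 to 4901, in the same order of comparisons. For 3A against no MYCN, 3806 genes were called, against 2166 and 2508 without no MYCN replicate 1 or 2.

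After group means of log2 CPM were subtracted, libraries of different groups were correlated over all tested genes. In IMR-32, same-numbered libraries gave r = 0.03 to 0.04, against -0.03 to -0.01 for libraries of different number. In SHEP the values were -0.03 to 0.14 and -0.13 to 0.06. The labels describe no pairing, and the numbers were not taken as pairs in the main fit. Whether same-numbered libraries share a condition was not tested. With the replicate block 5251, 4184, 4794 and 5414 genes were called, against 4639, 3315, 3806 and 4527 without it, and 5, 3, 4 and 4 Notch genes, against 5, 3, 3 and 4. Depth limits HES1, HEY1 and NOTCH2 in IMR-32 and JAG2, NOTCH3 and DLL3 in SHEP, each at or below 37 counts.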
